A study of Mus musculus with 12 samples.

Results

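The effect of a CD40 agonist antibody on melanoma macrophages was taken over both chows of the study at once. All 12 of the 12 libraries entered 1 additive model, with a term for the antibody and a term for chow holding an inhibitor of the CSF1 receptor, and the antibody term compares the 6 libraries given the antibody with the 6 not given it. Each library pooled at least 3 tumors of mice that carry Tyr::CreER, an inducible Cre driven by the tyrosinase promoter of pigment cells. Tumors followed local induction, and only this transgene of the genotype is reported here. Mice were age-matched, but the sources used here give neither age nor sex. The 4 groups of 3 libraries were Control (normal chow), CD40 agonist (normal chow and the antibody FGK4.5), CSF1Ri (chow with PLX6134 at 600 mg/kg) and CSF1Ri + CD40 agonist (both, called the combination below). The antibody was injected into the peritoneum at 10 mg/kg every 3 days for up to 10 injections, and the study gave PBS as the vehicle. Treatment began 30 days after induction, while all tumors of a mouse summed to less than 100 mm3, and ran for 30 days or until a tumor reached 2 cm3. Tumors of all groups were digested with collagenase for 30 minutes at 37 °C, and the sources used here state no gate by which macrophages were sorted for RNA.

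CD40 is a receptor of the TNF receptor family on macrophages, dendritic cells and B cells, and its natural ligand sits on activated T cells. Ligand or agonist antibody gathers TRAF adaptor proteins at the receptor, which switch on NF-kB and the stress kinases that feed AP-1 transcription factors. NF-kB then drives inflammatory cytokines and also its own regulators, among them the inhibitors IκBα (gene Nfkbia) and A20 (Tnfaip3) and the cofactor IκBζ (Nfkbiz). Transcripts of these regulators serve as a readout of recent NF-kB activity.

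Library totals ran from 26316328 to 39818657 estimated counts. Levels are counts per 1000000 counts of a library after TMM scaling (CPM), and a fold change is the antibody term on the log2 scale with its standard error (SE). A gene was called where its edgeR quasi-likelihood p-value, adjusted over 16027 genes by Benjamini-Hochberg, was below 0.05. Macrophage markers were present in every library, with the summed level of 7 genes at 16400 to 24500 CPM without the antibody and at 13200 to 33600 CPM with it, and 0 of the 7 were called. Most of that sum was Lyz2, with 6694386 counts over all libraries, against 12109 for C1qa and 2750 for Mertk. Fewer cells of a type and less RNA per cell cannot be told apart in such pooled samples.

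Markers of other cells were found beside them. Summed NK cell markers ran from 616 to 1170 CPM without the antibody and from 1060 to 2110 CPM with it, and summed melanocyte markers from 11.1 to 24.7 CPM and from 26.6 to 105 CPM. Both lists stood higher in the antibody arm, the second with no overlap. Neutrophil markers (542 to 3200 against 462 to 2600 CPM), B cell markers (197 to 394 against 111 to 515 CPM) and T cell markers (56.3 to 154 against 64.4 to 203 CPM) overlapped between the arms. Defining genes of several types were at 0 in most libraries: Sox10 in 8, Elane in 8, Epx in 11 and Tek in 11 of 12.

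The arms also differed in transcripts of the Y chromosome. Ddx3y, a Y-linked RNA helicase gene, was at 121 to 234 CPM in 7 libraries, namely all 6 without the antibody and combination replicate 2, and at 0.0786 to 0.471 CPM in the other 5. Eif2s3y, a Y-linked translation factor gene, split the libraries in the same way (104 to 188 CPM against 0.0393 to 0.349 CPM). Apart from combination replicate 2, the sex of the pooled mice and the antibody therefore cannot be told apart. That library is the 1 given the antibody that carries Y-linked transcripts, and it also stood apart from its group on the first principal component (-9.84 against 72.0 and 59.2), where the other 5 antibody libraries lay at 39.2 to 72.0 and the 6 without the antibody at -96.4 to -0.233. On that component, with 18.6% of the variance, it thus lay among the libraries that carry Y-linked transcripts, and on the second it was at -105.8 against -32.5 and -55.6. CD40 agonist replicate 1 did so on the third, and CSF1Ri replicate 3 on the second, and without these 3 libraries together 136 genes were called, 75 of the 185 among them. A fit with a further term for the 7 libraries (Ddx3y above 10 CPM), chosen after seeing the data, is given beside the results as the fit with the Y term, in which the antibody coefficient rests on combination replicate 2.

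**Figure D1:**
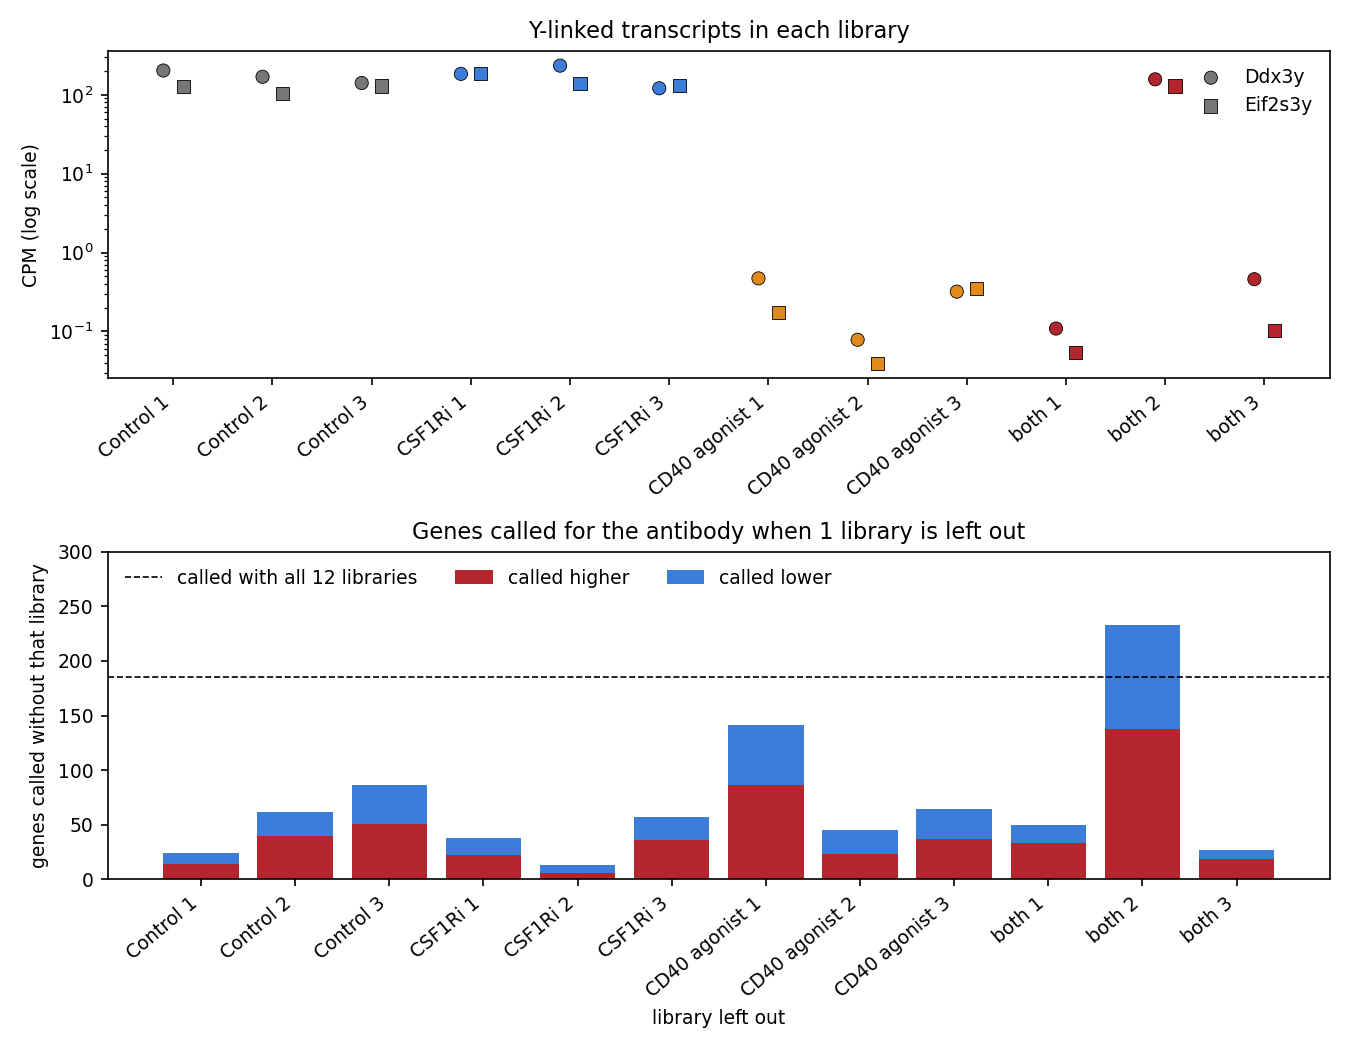
Upper panel, level of Ddx3y (circles) and Eif2s3y (squares) in each of the 12 libraries in CPM on a log scale, coloured by group ("both" is the combination). Lower panel, number of genes called higher (red) and lower (blue) for the antibody when the library named below the bar is left out, with a dashed line at the 185 called with all 12. Y-linked transcripts are high in the 6 libraries without the antibody and in combination replicate 2, and the count ranges from 13 to 233.

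In the additive model the antibody term called 185 of 16027 genes (1.15%). Of these 112 rose (0.699%) and 73 fell (0.455%), and 2711 genes had an unadjusted p below 0.05. The median log2 fold change over all genes tested was 0.0173, with 51.5% of genes above 0. Among the called genes 132 had no overlap between the 6 libraries of each arm, 73 of them higher and 59 lower. Over all genes tested the antibody arm lay wholly above the other in 195 (1.22%) and wholly below it in 246 (1.53%).

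The count of calls moved with single libraries. Without CSF1Ri replicate 2 it was 13, without Control replicate 1 it was 24, without combination replicate 3 it was 27 and without CSF1Ri replicate 1 it was 38. Left out singly, Control replicates 2 and 3, CD40 agonist replicates 2 and 3, combination replicate 1 and CSF1Ri replicate 3 each brought it to between 45 and 86. Without combination replicate 2 it was 233. All 185 genes kept their sign in each of these 12 fits. Of the 58 named genes that were called, 8 stayed called in all 12 fits (Atf3, Ubb, Jun, Cd82, Fam71a, Retnlg, Adamdec1 and Leng8), 9 lost the call in 1 to 3 of them and 41 in 4 or more. With the Y term 213 genes were called, and 181 of the 185 kept their sign but 27 kept the call. The median SE of the 185 genes was 0.154 without that term and 0.292 with it.

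**Figure D2:**
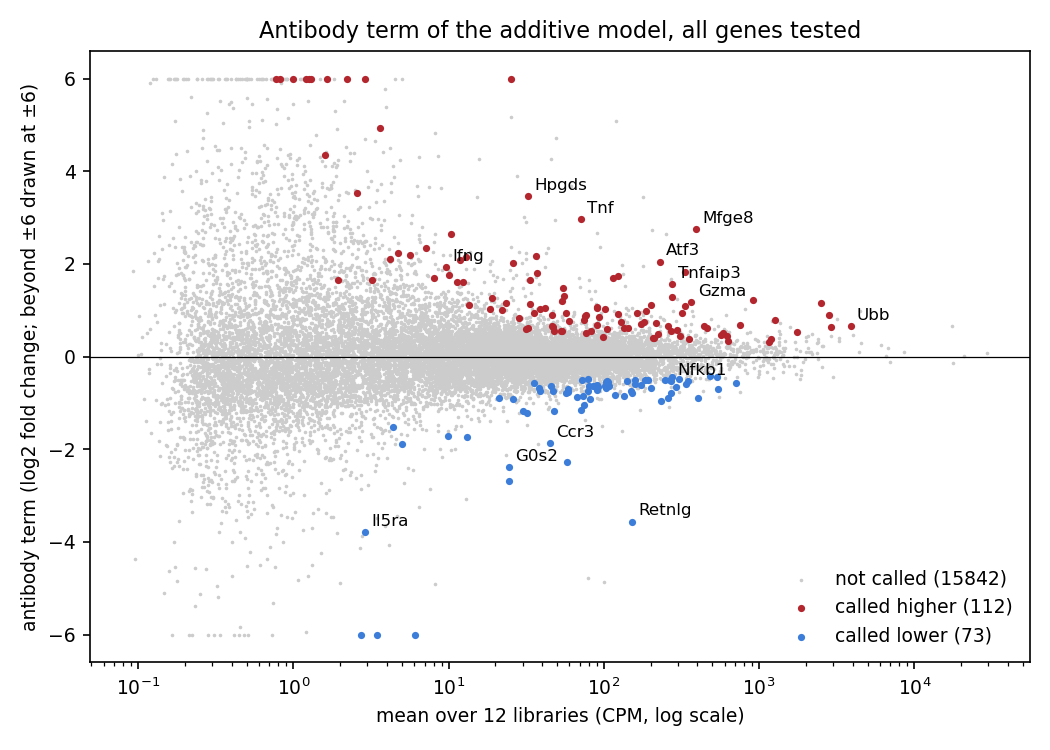
Antibody term (log2 fold change, values beyond 6 drawn at the edge) of each of 16027 genes against its mean level over 12 libraries (CPM, log scale). Red points are the 112 genes called higher and blue points the 73 called lower, with named genes labelled.

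Gene length went with the antibody as well. The genes that rose had a median effective length of 1519 bases and those that fell one of 2618, against 2062 over all genes tested. Within each library the median deviation of the longest quintile of genes minus that of the shortest was 0.0461 to 0.208 (log2) without the antibody and -0.275 to 0.0385 with it, with no overlap. With that trend removed 131 genes were called, 110 of the 185 among them, and no named gene changed sign.

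Transcripts of 3 NF-kB regulators rose in the antibody arm. Tnfaip3, which encodes the ubiquitin-editing enzyme A20 (ENSMUSG00000019850, chromosome 10, 19000910 to 19015657, GRCm38), stood at 64.6, 107 and 224 CPM (lowest, median and highest) without the antibody and at 228, 347 and 734 CPM with it. All 6 antibody libraries lay above all 6 others, and the rise of 1.57 ± 0.22 (log2, SE) had an edgeR adjusted p of 0.0171. Nfkbiz, which encodes IκBζ, a nuclear cofactor of NF-kB, rose from 100, 163 and 194 CPM to 297, 359 and 522 CPM, again with no overlap (1.28 ± 0.19, adjusted p = 0.0181). Nfkbia, which encodes the classical inhibitor IκBα (ENSMUSG00000021025, chromosome 12, 55489410 to 55492647), rose from 389, 449 and 803 CPM to 770, 1156 and 1957 CPM (1.23 ± 0.19, adjusted p = 0.0192). CD40 agonist replicate 3 (770 CPM) lay below CSF1Ri replicate 1 (803 CPM) for this gene. In combination replicate 2, the antibody library with Y-linked transcripts, Tnfaip3 and Nfkbia reached their highest levels of all. With the Y term, where the antibody coefficient rests on that library, the 3 rises were 2.04 ± 0.36, 1.68 ± 0.32 and 1.58 ± 0.33. Each of the 3 genes lost the call without CSF1Ri replicate 2, at adjusted p of 0.0516 for Tnfaip3 and 0.058 for Nfkbiz and Nfkbia.

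The promoters of Tnfaip3 and Nfkbia are shown because these inhibitors rose together. No window was available for Nfkbiz or for Nfkb1. Each sequence is the 250 bases before the start of transcription from RefSeq (GRCm38.p6), 5′ to 3′ on the gene's strand, with capitals marking matches on either strand to an NF-kB-like motif (GGGA, any 4 bases, CC) or to TGANTCA, the AP-1 motif. The window of Tnfaip3 lies at chr10:19015411-19015660 and that of Nfkbia at chr12:55492648-55492897, both on the minus strand. For Tnfaip3 the RefSeq start differs from the end of the gene located above, and nearly all of its window lies inside that gene. Its distances therefore hold for the RefSeq start only.
Tnfaip3: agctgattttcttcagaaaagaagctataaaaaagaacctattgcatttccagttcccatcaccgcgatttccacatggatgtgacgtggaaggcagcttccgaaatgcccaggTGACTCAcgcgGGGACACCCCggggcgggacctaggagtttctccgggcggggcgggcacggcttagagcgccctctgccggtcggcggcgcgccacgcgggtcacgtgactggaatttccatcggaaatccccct
Nfkbia: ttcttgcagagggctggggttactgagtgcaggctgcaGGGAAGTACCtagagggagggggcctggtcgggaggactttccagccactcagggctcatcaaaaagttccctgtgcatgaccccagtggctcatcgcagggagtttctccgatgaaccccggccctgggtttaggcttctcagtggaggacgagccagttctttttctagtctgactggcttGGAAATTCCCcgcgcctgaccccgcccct
The window of Nfkbia held 2 matches to the NF-kB-like motif, starting 212 and 29 bases before the start, and that of Tnfaip3 held 1 match to it at 125 bases and 1 to TGANTCA at 136 bases. Matches to the first motif occurred in 17.3% of 27025 promoter windows of this length, in 21 of 84 genes that rose (25%) and in 20 of 57 that fell (35.1%) among those with a window. TGANTCA occurred in 6.87% of windows, in 6 of 84 (7.14%) and in 7 of 57 (12.3%). TGACGTCA, the cyclic AMP response element, occurred in 1.62% of windows, in 4 of 84 (4.76%) and in 1 of 57 (1.75%). Among the other called NF-kB and immediate early genes with a window, Fosb held 2 matches to the first motif and Atf3 held 1. Fos, Jun, Junb and Dusp2 held 0 matches to any of these motifs.

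One NF-kB gene fell. Nfkb1, which encodes the p105 precursor of the p50 subunit, went from 285, 319 and 349 CPM without the antibody to 181, 229 and 250 CPM with it. The arms did not overlap (-0.52 ± 0.09, edgeR adjusted p = 0.0241), and the fall kept the call with the Y term (-0.78 ± 0.15) but lost it in 6 of the 12 fits without 1 library (highest adjusted p = 0.0641). Over 21 NF-kB subunits, inhibitors and targets the median was 0.36, against 0.0173 over all genes. It was 0.11 on normal chow and 0.53 on the inhibitor. Of the 21 genes 3 rose and 1 fell. The others ran from -0.39 (Zc3h12a, an RNase that degrades cytokine transcripts) to 0.97 (Gadd45b, a stress response gene, adjusted p = 0.057), and the subunit genes Rela (-0.13) and Rel (0.31) were not called.

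Early response transcription factors rose beside them. Atf3, a factor of the CREB family that is induced by stress and inflammatory signals (ENSMUSG00000026628, chromosome 1, 191170296 to 191218039), was at 67.2, 84.2 and 131 CPM without the antibody and at 250, 372 and 527 CPM with it. This change of 2.05 ± 0.18 had the smallest adjusted p of all genes (edgeR, 0.00142). It was 1.86 ± 0.25 on normal chow and 2.24 ± 0.25 on the inhibitor, and it stayed between 1.94 and 2.16 in the fits without 1 library. Jun, a component of AP-1, rose from 49.1, 55.7 and 73 CPM to 105, 123 and 138 CPM (1.06 ± 0.12, adjusted p = 0.0045). Fosb, its partner, rose from 49.6, 64.1 and 84.6 CPM to 106, 128 and 211 CPM (1.02 ± 0.17, adjusted p = 0.0231). For all 3 genes every antibody library exceeded every other library.

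Fos, the prototype of the early response genes, was already abundant without the antibody (598, 872 and 1342 CPM) and rose to 1387, 1498 and 1993 CPM (0.78 ± 0.15, edgeR adjusted p = 0.0374). Its arms did not overlap, with 1342 CPM in CSF1Ri replicate 1 just under the lowest antibody library. The call was lost in 10 of 12 fits without 1 library and with the Y term (0.76 ± 0.28, adjusted p = 0.248). Junb (0.71 ± 0.15, adjusted p = 0.0477) and Dusp2 (1.14 ± 0.22, adjusted p = 0.0392), a phosphatase that ends MAP kinase signals, also rose, and are named here to complete the count. In all, 6 of 25 immediate early genes rose and 0 fell, with a median of 0.49. Egr1 (0.54), Dusp1 (-0.09), Klf4 (0.01) and Myc (-0.53), of the same list, were not called. The count was 2 without Control replicate 1 or without CSF1Ri replicate 2, and it was 2 with the Y term, where Atf3 (2.14 ± 0.31) and Jun (1.17 ± 0.22) kept the call and Fosb (0.44 ± 0.27) did not.

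A ubiquitin gene and a histone gene were among the most abundant that rose. Ubb, which encodes ubiquitin as a chain of repeats, went from 2776, 2918 and 3355 CPM to 4119, 4950 and 5080 CPM. Its change of 0.66 ± 0.06 was small in size but tight between libraries (edgeR adjusted p = 0.00155), and it was 0.64 on normal chow and 0.69 on the inhibitor. H3f3b, which encodes the replacement histone H3.3, rose from 2003, 2294 and 2494 CPM to 2833, 3183 and 4536 CPM (0.63 ± 0.11, adjusted p = 0.0305). Neither overlapped between the arms, and both kept the call with the Y term. Of 13 heat shock protein genes 0 were called, and Hsph1 was at -0.63 (adjusted p = 0.16). The median of that list was 0.20, at -0.0407 on normal chow (5 of 13 positive) and 0.47 on the inhibitor (10 of 13 positive).

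**Figure D3:**
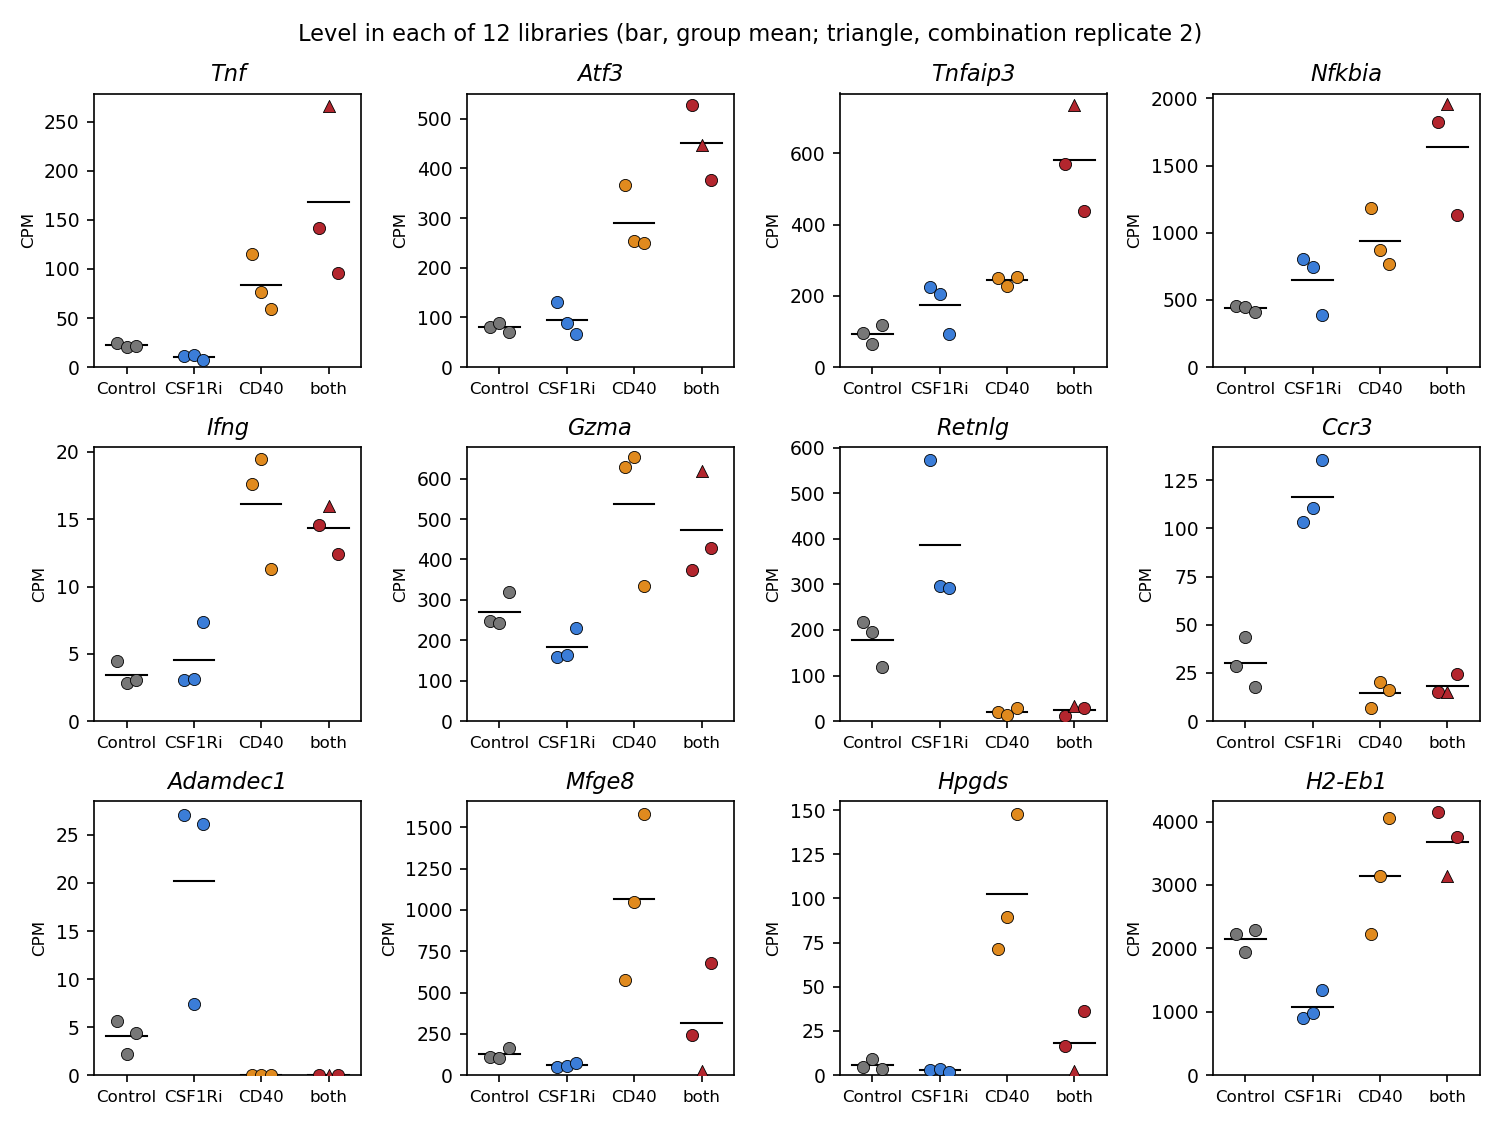
Level of 12 genes (CPM, linear axes from 0) in each library by group, with a bar at the mean of 3 libraries and a triangle for combination replicate 2. Tnf, Atf3, Tnfaip3 and Ifng are higher in every antibody library, Retnlg and Adamdec1 lower in each of them, and Mfge8 and Hpgds are low in combination replicate 2.

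Tnf, the cytokine that macrophages release early in inflammation (ENSMUSG00000024401, chromosome 17, 35199381 to 35202007), had the largest rise among the cytokines that were abundant. It was at 24.7, 20.5 and 21.7 CPM in Control replicates 1 to 3, at 11.1, 12.5 and 7.0 CPM with CSF1Ri, at 115, 76.2 and 58.8 CPM with the CD40 agonist and at 142, 266 and 96.3 CPM with the combination. The lowest antibody library thus held more than the highest of the others. The term was 2.97 ± 0.44 (edgeR adjusted p = 0.0181), composed of 1.91 ± 0.38 on normal chow and 4.04 ± 0.41 on the inhibitor, and the difference between the chows had an adjusted p of 0.33. Without CSF1Ri replicate 2 the adjusted p was 0.0598, and with the Y term the change was 4.27 ± 0.52 (adjusted p = 0.00382).

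Both interferon cytokines of the list rose from low levels. Ifng, the interferon of T cells and NK cells, was at 2.85, 3.12 and 7.37 CPM without the antibody and at 11.3, 15.3 and 19.5 CPM with it (1.94 ± 0.30, edgeR adjusted p = 0.0181). Ifnb1, interferon beta, had 0 counts in all 6 libraries without the antibody and 0.353, 1.59 and 7.49 CPM with it. Its mean of 2.40 CPM was at least 148-fold higher than the floor of 0.0162 CPM that 3 counts over the arm allow (adjusted p = 0.0392), and the call was lost in 10 of the 12 fits without 1 library. Neither gene overlapped between the arms, but Ifng lost the call with the Y term (1.95 ± 0.51). NK cell markers, which moved the same way, are given above, and their part in the Ifng change was not tested.

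Of 23 cytokine genes 3 rose and 0 fell, with a median of 0.46, which stays the same with Ifnb1 set at its bound. Il12b, the subunit shared by interleukins 12 and 23, was at 2.07, 9.15 and 17.8 CPM and at 14.3, 43.4 and 224 CPM (2.94 ± 0.78, edgeR adjusted p = 0.0883), with 20.4 CPM in combination replicate 2 and 224 and 177 CPM in replicates 1 and 3. Il6 (0.40 ± 0.22, adjusted p = 0.398) and Il1b (-0.87 ± 0.41, adjusted p = 0.313) were not called. The Il1b levels without the antibody spread from 216 to 1649 CPM, the 2 highest in CSF1Ri replicates 1 and 2, while those with it stayed between 284 and 479 CPM.

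Among 26 chemokines 23 had a positive change, with a median of 0.95, and 1 was called. Ccl3, which draws monocytes and lymphocytes, went from 114, 171 and 360 CPM to 215, 436 and 694 CPM (1.10 ± 0.22, edgeR adjusted p = 0.0443). Its arms overlapped, since CSF1Ri replicates 1 and 2 (360 and 333 CPM) exceeded CD40 agonist replicate 3 (215 CPM), and the call was lost in 10 of 12 fits without 1 library. It was lost with the Y term as well (0.72 ± 0.40). Ccl4 (0.90 ± 0.27, adjusted p = 0.12), Ccl5 (1.02 ± 0.25, adjusted p = 0.0712) and Cxcl9, an interferon gamma target (2.36 ± 0.74, adjusted p = 0.138), were not called.

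The receptor and its signalling parts showed 0 calls among 18 genes, with a median of 0.0269 and 5 genes at an unadjusted p below 0.05. Cd40 itself was at 60.4, 103 and 151 CPM without the antibody and at 99.1, 159 and 303 CPM with it (0.75 ± 0.33, edgeR adjusted p = 0.279). Its values overlapped, and its change was -0.16 ± 0.26 on normal chow and 1.66 ± 0.27 on the inhibitor. The edgeR test of the difference between the chows did not pass for Cd40 after adjustment. Traf1, an adaptor that NF-kB induces (0.29 ± 0.23, adjusted p = 0.555), and Map3k14, the kinase NIK of the alternative NF-kB pathway (-0.58 ± 0.20, adjusted p = 0.177), were not called.

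Of 21 co-stimulation, checkpoint and activation molecules 2 rose. Tnfsf9, which binds the co-stimulatory receptor 4-1BB on T cells, went from 5.45, 13.7 and 16.3 CPM to 20.7, 49.4 and 122 CPM with no overlap (2.18 ± 0.41, edgeR adjusted p = 0.0391). Cd69, an early activation marker of lymphocytes and myeloid cells, went from 32.8, 71 and 149 CPM to 64.1, 155 and 286 CPM (0.91 ± 0.19, adjusted p = 0.0477). The Cd69 arms overlapped because CSF1Ri libraries (80.8 to 149 CPM) stood above Control (32.8 to 61.3 CPM), while on each chow the 3 antibody libraries exceeded the 3 others. Cd83, a maturation marker of antigen-presenting cells, was not called (0.33 ± 0.34, adjusted p = 0.666). Combination replicate 2 had 82.4 CPM, and the other 5 antibody libraries had 336 to 508 CPM. With the Y term Tnfsf9 was at 1.63 ± 0.71 (adjusted p = 0.343) and Cd69 at 1.20 ± 0.34 (adjusted p = 0.133), and the calls were lost in 10 and 11 of 12 fits without 1 library. Cd82, a tetraspanin named for its small p-value, rose from 39.5, 61.4 and 73.5 CPM to 94.6, 119 and 151 CPM (1.04 ± 0.12, adjusted p = 0.0045) and kept the call with that term.

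MHC class II genes had a positive change in 12 of 12, with a median of 0.64, and 2 were called. H2-Eb1, a class II beta chain, stood at 897, 1641 and 2292 CPM without the antibody and at 2228, 3448 and 4154 CPM with it (1.16 ± 0.24, edgeR adjusted p = 0.0447). The arms touched, since Control replicates 1 and 3 (2233 and 2292 CPM) lay just above CD40 agonist replicate 1 (2228 CPM), and the change was 0.54 ± 0.21 on normal chow and 1.78 ± 0.22 on the inhibitor. H2-DMb2, a chain of the peptide-loading chaperone, went from 33.6, 53.3 and 79.6 CPM to 40.8, 192 and 271 CPM (1.70 ± 0.34, adjusted p = 0.044), with the lowest value in combination replicate 2. Both calls were lost in 11 of 12 fits without 1 library, and with the Y term H2-DMb2 turned to -0.30 ± 0.39. H2-Eb1 was at 1.21 ± 0.44 with that term and lost the call. H2-Aa was at 0.99 ± 0.22 (adjusted p = 0.0586). Of 22 MHC class I genes 21 had a positive change (median 0.38) and 0 were called, H2-K1 at 0.39 ± 0.11 (adjusted p = 0.0979). The class I median was -0.0864 on normal chow (8 of 22 positive) and 0.82 on the inhibitor (22 of 22 positive).

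Interferon response genes stood apart in combination replicate 2. The summed type I interferon response genes were at 7227 CPM there, against 2352 and 2903 CPM in replicates 1 and 3 of the group and 2829 to 3143 CPM with CSF1Ri. The 30 genes had 0 calls and a median of -0.18, with medians of -0.78 on normal chow (3 of 30 positive) and 0.64 on the inhibitor (21 of 30 positive). Without combination replicate 2, a setting added after seeing the data, the median on the inhibitor was -0.0927 (12 of 30 positive), so its sign rests on that library. Ifit3, an antiviral gene of that list, was at 46.8 to 59.6 CPM in Control and 15.6 to 20.1 CPM with the CD40 agonist, but at 9.24 to 23.1 CPM with CSF1Ri and 26.6 to 33.5 CPM with the combination. Its change was thus opposite on the chows (-1.66 ± 0.30 and 0.84 ± 0.29), and the edgeR test of that difference gave an adjusted p of 0.174. Of 23 interferon gamma response genes Gbp2b, a guanylate-binding protein, rose from 5.60, 10.1 and 11.1 CPM to 15.4, 32.4 and 89.0 CPM (2.01 ± 0.38, adjusted p = 0.0374). The median of the list was 0.49, with -0.24 on normal chow and 1.57 on the inhibitor. Its summed level was 10930 CPM in combination replicate 2, against 2613 and 3419 CPM in the other 2 of the group, and without that library the medians were 0.18 and, on the inhibitor, 0.69. Near-identical Gbp copies make the counts of single members uncertain.

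Among called genes with a mean of at least 5 CPM, Adamdec1 and Retnlg fell most. Retnlg, a resistin-like secreted protein of neutrophils (ENSMUSG00000022651, chromosome 16, 48872621 to 48874496), stood at 119, 255 and 572 CPM without the antibody and at 10.7, 23.7 and 33.2 CPM with it. This drop of -3.56 ± 0.35 (edgeR adjusted p = 0.00174) left the arms far apart and held in all 12 fits without 1 library. With the Y term it was -3.31 ± 0.80 (adjusted p = 0.077). The other 11 neutrophil markers were not called and pointed both ways, and the list had a median of -0.15. S100a9 (-1.15) and Csf3r (-1.09) had negative changes, while Ngp, a granule protein of immature neutrophils, was at 0, 0.739 and 18.8 CPM without the antibody and at 19.8, 131 and 860 CPM with it (5.09 ± 1.59, adjusted p = 0.137). The Ngp arms did not overlap, but single libraries within an arm lay far apart.

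Adamdec1, a metalloprotease-like gene of macrophages and dendritic cells (ENSMUSG00000022057, chromosome 14, 68563380 to 68582095), had 0 counts in all 6 antibody libraries. Without the antibody it was at 2.22, 6.50 and 27.1 CPM, the higher values with CSF1Ri (7.38 to 27.1 CPM). The mean of 12.2 CPM makes the antibody arm at least 805-fold lower, against a floor of 0.0151 CPM over that arm (edgeR adjusted p = 0.0056), and combination replicate 2 was at 0 as well.

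Receptor genes of eosinophils fell in the antibody arm. Ccr3, the eotaxin receptor, was at 17.8, 73.6 and 136 CPM without it and at 6.97, 15.7 and 24.5 CPM with it (-1.86 ± 0.38, edgeR adjusted p = 0.0443). Il5ra, the receptor chain for interleukin 5, went from 0.636, 5.87 and 9.94 CPM to 0.218, 0.300 and 0.523 CPM (-3.78 ± 0.67, adjusted p = 0.0288) with no overlap. Most of the distance lay on the inhibitor, where the summed eosinophil markers were at 155 to 236 CPM with CSF1Ri and 24.3 to 36.4 CPM with the combination, against 30.4 to 61.6 CPM in Control and 28.5 to 38.1 CPM with the CD40 agonist. Of 6 eosinophil markers 2 fell, 0 were positive and the median was -2.65, Epx being at 0 in 11 libraries and not tested. The Il5ra call was lost in 7 and the Ccr3 call in 10 of 12 fits without 1 library. Both calls were lost with the Y term, where Il5ra was at -4.34 ± 1.54 and Ccr3 at -2.64 ± 0.81.

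Other falls of the largest size were in single genes. G0s2, an inhibitor of lipolysis, went from 13.9, 26.6 and 96.5 CPM to 3.59, 6.25 and 15.1 CPM (-2.39 ± 0.37, edgeR adjusted p = 0.0191). Slfn4, an interferon-inducible gene of monocytes and macrophages, went from 17.1, 79.6 and 216 CPM to 7.12, 19.3 and 43.8 CPM (-2.27 ± 0.48, adjusted p = 0.0476). In both genes the arms overlapped through 1 library without the antibody, Control replicate 3 for G0s2 and CSF1Ri replicate 3 for Slfn4. Camkk2, a kinase upstream of AMPK (-1.22 ± 0.22, adjusted p = 0.0305), Adamts10, a secreted metalloprotease (-1.18 ± 0.23, adjusted p = 0.0392), and Leng8 (-1.18 ± 0.16, adjusted p = 0.0108) fell with no overlap. So did Olfr1245 (-1.88), Vmn1r38 (-1.72) and A430078G23Rik (-1.73), of which Olfr1245 and Vmn1r38 belong to receptor families with near-identical copies and are uncertain. Uty, a Y-linked demethylase gene, is among the calls too (-2.68 ± 0.57, adjusted p = 0.0477) and follows the split of Y-linked transcripts. With the Y term no gene of this paragraph kept the call (G0s2 at -3.26 ± 0.83 and Slfn4 at -1.51 ± 0.97).

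The largest rises included genes that combination replicate 2 did not share. Hpgds, the hematopoietic prostaglandin D synthase, was at 1.95, 3.62 and 9.24 CPM without the antibody and at 71.3 to 148 CPM with the CD40 agonist, but at 16.4, 2.17 and 36.6 CPM in combination replicates 1 to 3 (3.46 ± 0.59, edgeR adjusted p = 0.0258). Mfge8, a bridging protein for the uptake of dying cells, was at 48.3, 88.2 and 166 CPM and at 579 to 1579 CPM with the CD40 agonist, with 245, 23.5 and 681 CPM in the combination (2.75 ± 0.58, adjusted p = 0.0476). For both genes the antibody library with Y-linked transcripts lay within or under the range of the libraries without the antibody, and with the Y term they were at -0.14 ± 0.66 and -1.30 ± 0.60. Ighg1, an immunoglobulin heavy chain gene, owes its call (adjusted p = 0.0392) to CD40 agonist replicates 1 and 2, at 216 and 78.3 CPM, against at most 4.52 CPM in the other 10 libraries, and 10 of 12 fits without 1 library did not call it.

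Csprs and Exoc3l4 were highest in combination replicate 2. Csprs, a gene with near-identical copies, went from 2.78, 4.47 and 7.08 CPM to 13.9, 15.7 and 44.3 CPM (2.15 ± 0.35, edgeR adjusted p = 0.0229). Exoc3l4, of the exocyst-like family, went from 1.24, 1.68 and 3.91 CPM to 5.94, 8.08 and 16.5 CPM (2.20 ± 0.36, adjusted p = 0.0229). Both had no overlap. With the Y term, where the antibody coefficient rests on that same library, Csprs was at 3.25 ± 0.44 and Exoc3l4 at 2.88 ± 0.56. Itih5, a hyaluronan-binding matrix protein, went from a median of 2.05 to 12 CPM with no overlap (2.33 ± 0.49, adjusted p = 0.0476), but the call was lost in all 12 fits without 1 library and with the Y term (2.21 ± 0.84, adjusted p = 0.266). Dpys, a pyrimidine-degrading enzyme, went from a median of 2.55 to 16.2 CPM (2.64 ± 0.55, adjusted p = 0.0462). Combination replicate 2 was the lowest antibody library for Dpys, at 5.63 CPM and below Control replicate 1 (7.60 CPM), and the call was lost in 10 of 12 fits without 1 library and with the Y term (1.53 ± 0.92, adjusted p = 0.53).

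A melanocyte marker and a pair of NK cell granule genes rose as well. Dct, an enzyme of melanin synthesis, rose from 3.71, 4.30 and 6.33 CPM to 4.78, 18.2 and 36.6 CPM (2.09 ± 0.43, edgeR adjusted p = 0.0455), at 4.78 CPM in combination replicate 2 and 0.07 ± 0.63 with the Y term. Of 7 melanocyte markers 7 were positive, with a median of 3.33, which is the same with Sox10 at its bound, and 1 was called. Gzma, a protease of cytotoxic granules, rose from 160, 236 and 318 CPM to 333, 523 and 652 CPM with no overlap (1.18 ± 0.19, adjusted p = 0.0229), and Nkg7, another granule gene, from 77.6, 128 and 178 CPM to 173, 221 and 336 CPM (0.98 ± 0.16, adjusted p = 0.0234). Gzma stood at 618 CPM in combination replicate 2 and kept the call with the Y term (1.72 ± 0.29), while Nkg7 lost it (1.08 ± 0.30). Of 11 NK cell markers 11 were positive (median 0.84) and 2 rose, while 0 of 12 T cell markers were called (median -0.24).

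Cell cycle genes had a positive change in 30 of 30, with a median of 1.10, and 2 were called. Mki67, a marker of dividing cells, went from 19.0, 24.7 and 32.7 CPM to 41.4, 53.2 and 66.3 CPM (1.03 ± 0.18, edgeR adjusted p = 0.0305), and Birc5, survivin, from 2.80, 4.29 and 6.26 CPM to 7.83, 14.1 and 30.8 CPM (1.77 ± 0.38, adjusted p = 0.0477). Neither overlapped between the arms. The Mki67 call was lost in 9 and the Birc5 call in 11 of 12 fits without 1 library, and with the Y term they were at 1.02 ± 0.35 (adjusted p = 0.214) and 0.68 ± 0.63 (adjusted p = 0.698). The summed level of the list was at most 315 CPM without the antibody and 417 to 923 CPM with it. Summed melanocyte markers were higher over the same libraries, and which cells carried the cell cycle transcripts was not tested.

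Among the remaining lists each had at most 1 call. Cfp, the complement regulator properdin, was the 1 of 31 macrophage identity and complement genes that rose, from 155, 177 and 344 CPM to 301, 433 and 475 CPM (0.94 ± 0.18, edgeR adjusted p = 0.0406). Csf1r (0.25 ± 0.15, adjusted p = 0.429), the target of the chow, was not called. Ctsd, the lysosomal protease cathepsin D (0.62 ± 0.13, adjusted p = 0.0462), Ldha, lactate dehydrogenase A (0.45 ± 0.09, adjusted p = 0.0447), Pmaip1, the death-promoting protein NOXA (1.12 ± 0.20, adjusted p = 0.0317), and Cma1, a mast cell protease (1.03 ± 0.21, adjusted p = 0.0447), were the single rises of their lists. mt-Cytb, encoded by mitochondrial DNA, rose from 1092, 1400 and 1860 CPM to 1866, 2091 and 2152 CPM (0.54 ± 0.09, adjusted p = 0.0249), and 13 of 13 mitochondrially encoded genes were positive (median 0.40). Of 18 non-classical monocyte genes 0 were called (median -0.19), with Ace at -0.69 ± 0.22 (adjusted p = 0.138) and Cd300e at 0.10 ± 0.19 (adjusted p = 0.824), and of 16 classical monocyte genes 0 (median 0.18). Pmaip1 and mt-Cytb had no overlap between the arms. None of these calls held in every fit without 1 library, and none held with the Y term. Erythroid markers were lower in 5 of 5 (median -1.62) with 0 calls, and fibroblast, keratinocyte, endothelial, dendritic, B cell and muscle or adipocyte markers had 0 calls as well.

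**Figure D4:**
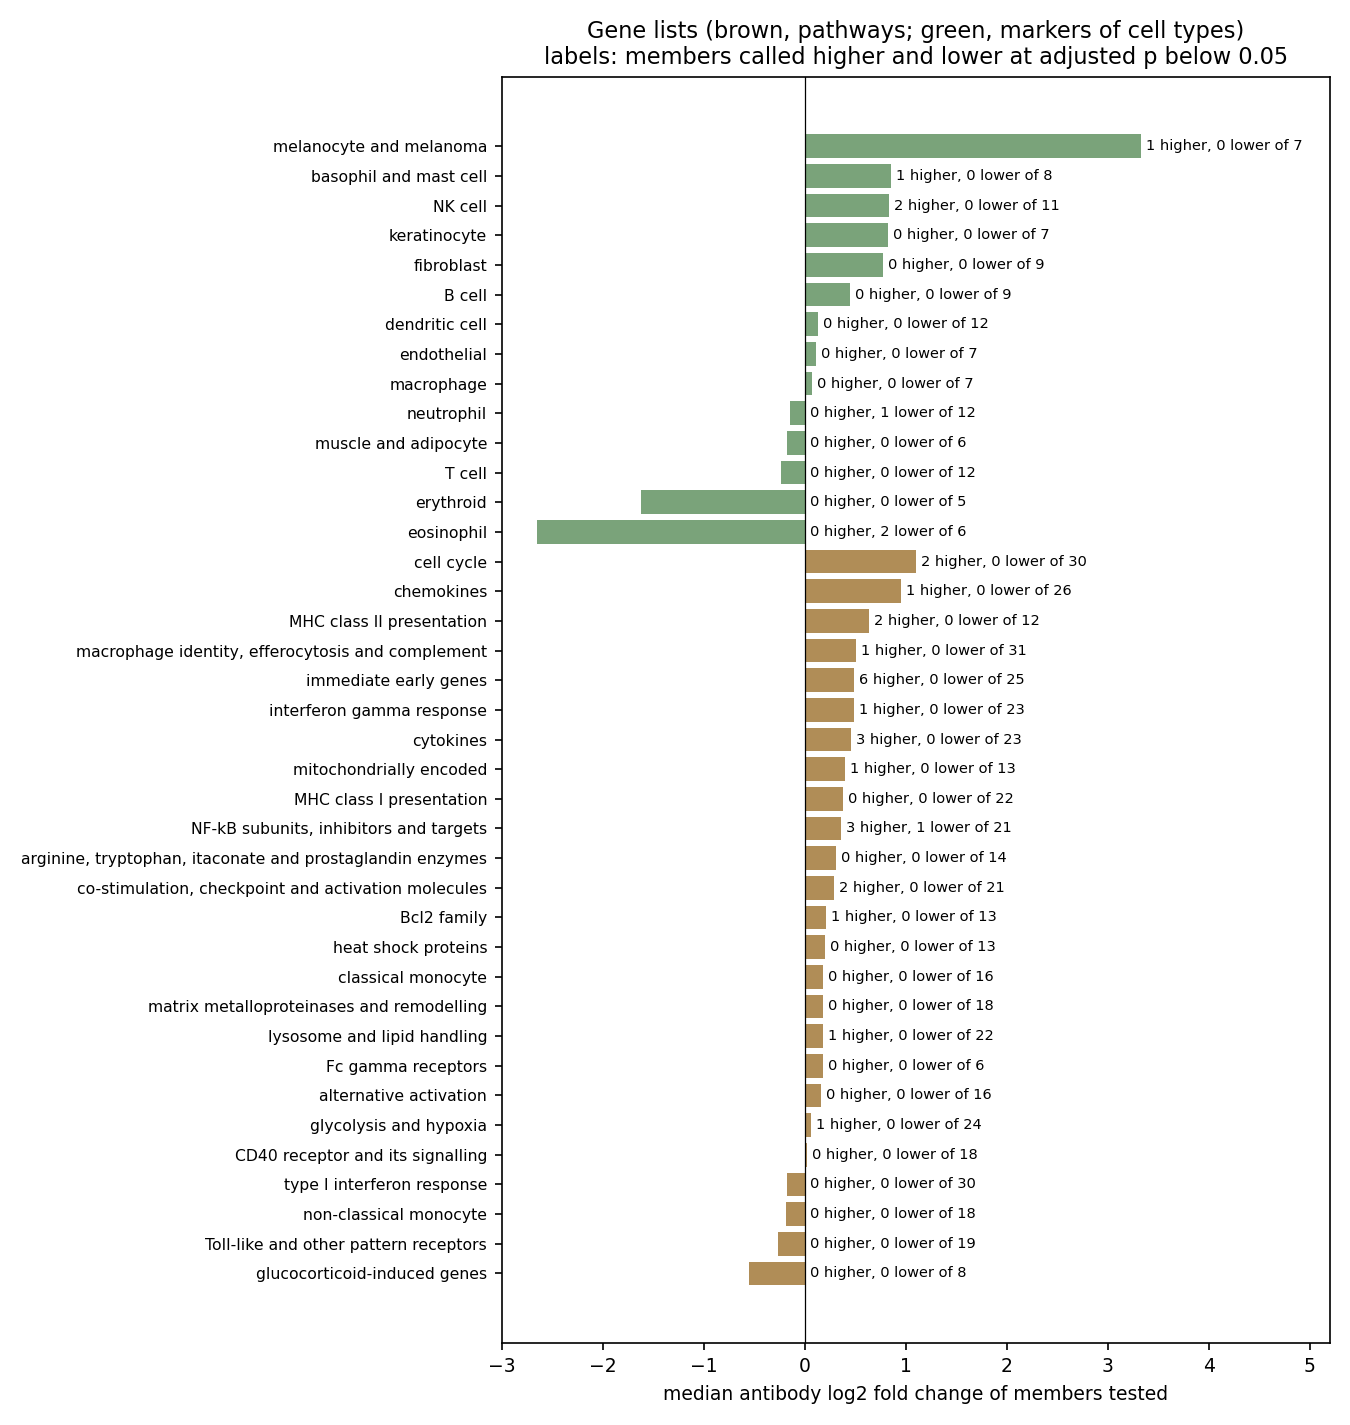
Median antibody log2 fold change of the tested members of each gene list, pathways in brown and cell type markers in green, with the number of members called higher and lower beside each bar. Immediate early genes have 6 calls and the NF-kB list 4, and eosinophil markers have the lowest median, -2.65.

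The chows were then taken apart in a model with 1 term per group. The antibody on normal chow (CD40 agonist minus Control) called 0 genes (0%), with 1231 at an unadjusted p below 0.05, and DESeq2 called 194 and the bias-adjusted form of edgeR 10. On the inhibitor (combination minus CSF1Ri) 311 genes were called (1.94%), 199 higher (1.24%) and 112 lower (0.699%). The difference between the chows called 0 genes (0%), with 1305 at an unadjusted p below 0.05, 178 by DESeq2 and 0 by the bias-adjusted form. The larger count on the inhibitor is therefore not shown to be a difference between the chows. These 2 effects share no library.

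Of the 185 genes called for the antibody term 183 had the same sign on both chows, which the choice of genes by a term common to both chows favours. Over all genes tested 61.8% had the same sign. The larger change was on the inhibitor in 140 of the 185 (75.7%) and in 60.9% of all genes. For the difference, an unadjusted edgeR p below 0.05 was found in 32 of the 185 (17.3%), against 1305 of all 16027 genes tested. Of the 185, 0 passed after adjustment. Tnf (1.91 and 4.04) and Ccr3 (-1.05 and -2.66) lay toward the inhibitor, while Ifng (2.22 ± 0.42 and 1.65 ± 0.41) and Hpgds (4.15 and 2.74) lay toward normal chow. A few genes at low levels were present on 1 chow. Tspan8, a tetraspanin, had 5.19 to 14.6 CPM with the CD40 agonist and 0 counts in the other 9 libraries, and Sucnr1, the succinate receptor, had 1.77 to 9.71 CPM there and at most 0.0272 CPM elsewhere.

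**Figure D5:**
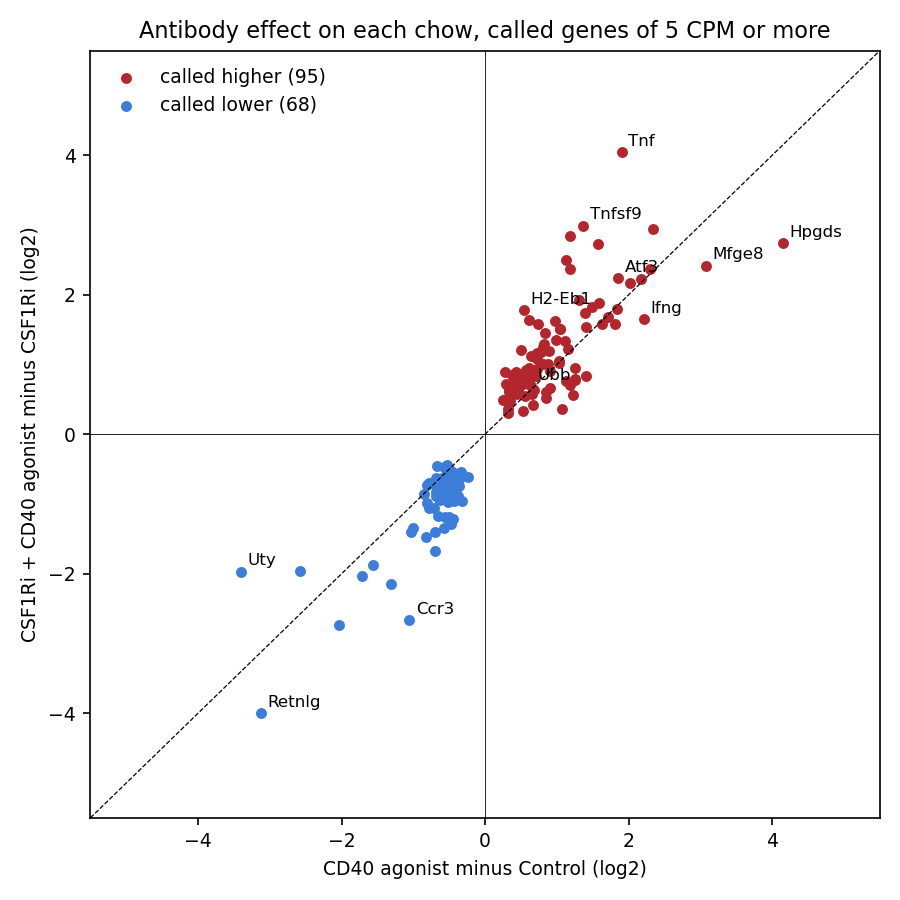
Antibody effect (log2) on normal chow (x axis) and on the inhibitor (y axis) for 163 of the 165 called genes with a mean of 5 CPM or more, the other 2 lying beyond the axes. The dashed line marks equal effects, and the 95 genes called higher (red) and 68 called lower (blue) lie in the quadrants of equal sign.

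Combination replicate 2 served as a library to read the calls of the others in. The 11 other libraries called 233 genes, of which 136 that rose and 95 that fell were also tested with all 12, and in those 11 every antibody library lacked Y-linked transcripts and every other library carried them. Of the 136 risen genes 82 (60.3%) were higher in combination replicate 2 than in all 6 libraries without the antibody, and 9 (6.62%) lower than all 6. Of the 95 that fell 56 (58.9%) were lower than all 6 and 19 (20.0%) higher than all 6. Over all genes tested 20.7% were higher than all 6 and 20.3% lower than all 6. The same 6 libraries without the antibody also entered the calls that chose these genes. That choice by itself favours agreement, so the shares over all genes are not an equal comparison.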

How the data were processed

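RNA was sequenced from 12 pooled samples labelled tumor-associated macrophages, 3 in each of 4 groups. Libraries came from 50 ng of RNA with a low-input kit that does not mark strand and were read as 75-bp pairs, 6 samples per lane, per the labels' protocols. The sources used here do not say which samples shared a lane. The submitters' processing notes name STAR, HTSeq, DESeq2 and mm10. The deposited files instead list an estimated count and a TPM value for each of 111462 transcripts, per the file headers, and the sources used here name neither the quantifier nor the annotation behind them. Of the genotype, only the Cre transgene is reported here.

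Estimated counts were summed over transcripts to 34989 genes of GENCODE M21 (GRCm38), with 98.9% of transcripts matched, and rounded. Counts of unmatched transcripts were 0.378% to 0.436% of a library. The deposited TPM values served for 1 alternative. Genes passing filterByExpr over the 4 groups (16027) were tested with edgeR 4.0.16 in R 4.3.3 (TMM scaling, robust quasi-likelihood F-test, 9 residual degrees of freedom, 8 with 1 term per group), with Benjamini-Hochberg adjustment at 0.05. The SE is the absolute log2 fold change divided by the square root of F. The biological coefficient of variation was 63.2%. The script was tested on simulated data. Alternatives were DESeq2 1.42.0, limma 3.58.1 (voom), other models, scalings, filters and thresholds, and leaving out libraries. A Y term, a removed length trend and list medians without combination replicate 2 were added after seeing the data. A fold against an arm with 0 counts was taken from a floor of 3 counts over that arm. Counting intervals do not cover differences between pools, and nothing says that pools of a group came from separate experiments, so p-values measure the spread between these pools.

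Genes named are the 12 largest rises and the 12 largest falls among called genes with a mean of at least 5 CPM and 1 sign on both chows, 25 fixed genes, up to 4 called members (or, with none called, 2 values) of each list, the 6 smallest adjusted p, the 6 largest differences between the chows and the 6 most abundant. Genes outside this rule are said to be so or are given as values of a list. The members, lists and this rule were chosen with earlier results of these data known. Near-identical genes and genes overlapping on the opposite strand have uncertain counts.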

Additional observations from a re-analysis of the deposited data

Results flagged for a closer look

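Each arm of 6 libraries was screened for a lowest or highest library far from the rest on the scale of log2(CPM + 0.5), in 118 arms of 59 genes, with the gap to the nearest library given as a share of the arm's range and a limit of 0.625. Chance passes this limit in about 1 in 20 arms, and each arm holds both chows. Combination replicate 2 stood apart in 3 genes of the antibody arm. Cd83, the maturation marker, was lowest there at 82.4 CPM (share 0.773). Uty, the Y-linked demethylase gene, was highest there at 27.4 CPM (share 0.93). Serpina11, a serpin gene, was at 0.61 CPM there and at 0 in the other 5 libraries (share 1.0).

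In the arm without the antibody CSF1Ri replicate 1 was lowest for Gbp2b at 5.60 CPM (share 0.656). Single libraries held the only counts of 3 genes, with a share of 1.0 each, namely Ighg1 at 0.112 CPM and Fam71a at 0.075 CPM in CSF1Ri replicate 2, and Pla2g5 at 0.03 CPM in Control replicate 1. Ifit3, the interferon-induced antiviral gene, was lower with the antibody in each library on normal chow and higher in each on the inhibitor. The effects differed by 2.50 (log2), and the edgeR test of that difference did not pass (adjusted p = 0.174).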

How the results depend on the processing

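All 185 genes kept their sign under every setting that tested them, except 4 with the Y term and 1 with the length trend removed, but the counts moved. Against 185 genes (112 higher, 73 lower), the mean of both chow effects gave 335 (213 and 122), no chow term 119 (75 and 44), DESeq2 1206 (743 and 463), the bias-adjusted edgeR fit 481 (278 and 203), no filter on low counts 114 (72 and 42), an adjusted p below 0.01 10 (6 and 4) and one below 0.10 577 (350 and 227). DESeq2 at a log2 fold change of 1.5 and adjusted p of 0.01 gave 186 (145 and 41). Limma voom (213), RLE (179), upper-quartile scaling (184), length-scaled TPM (206), no robust estimation (160) and a filter of 1 CPM in 6 libraries (230) moved the total by less than 1.5 times. For the chows apart, DESeq2 gave 194 on normal chow, 1486 on the inhibitor and 178 for their difference, and the bias-adjusted fit 10, 524 and 0. The cause was not tested.

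Leaving out 1 library in turn gave 13 to 233 genes for the antibody term (6 to 138 higher, 7 to 95 lower), 0 to 7 on normal chow, 22 to 429 on the inhibitor and 0 to 15 for the difference. Every list lost all its calls without some 1 library, except the immediate early genes (2 kept) and neutrophil markers (1 kept). The replicate numbers did not pair the samples: same-numbered libraries correlated at -0.0614 to 0.0603 in 18 pairs, and 6 of 12 libraries correlated best with their own number. With the replicate block 59 genes were called (37 and 22), with 1 on normal chow, 121 on the inhibitor and 0 for the difference.

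With the Y term these genes turned sign: Hpgds (-0.14), Mfge8 (-1.31), Traf1 (-0.0955), Cd83 (-1.88), Ifit3 (0.36), Cd300e (-0.078), Hspb1 (-2.88), H2-DMb2 (-0.30), Mgl2 (-2.49), Ptgs1 (-0.0238), Fcgrt (-1.0), C1qa (-0.93), Fcrla (-5.34), Itgae (-0.45), Ccr9 (-1.37), Pdgfra (-1.42) and Trp63 (-0.90). Without a chow term Cd300e was at -0.0458 and Hspb1 at -0.13, and with the bias-adjusted fit Hspb1 was at -0.0758. Without the 3 libraries that stood apart Ly6c2 was at -0.013 and Cd8b1 at 0.20. Leaving out 1 library in turn gave Cd300e -0.013 to 0.214, negative without combination replicate 3 (-0.0128) or CSF1Ri replicate 1 (-0.013), and Hspb1 -0.525 to 1.65, negative without combination replicate 1. Of these genes Hpgds, Mfge8 and H2-DMb2 were called with all 12 libraries. At 3 to 6 libraries a group and this spread between pools, changes of genes under 5 CPM, 20 of the 185, rest on few counts.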

Other observations

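These genes were called but lie outside the rule for named genes and were picked once their values had been seen. Ppp1r15a, the stress-induced phosphatase subunit GADD34, rose from 76.0, 127 and 254 CPM (lowest, median and highest) to 408, 503 and 669 CPM with no overlap (1.82 ± 0.22, edgeR adjusted p = 0.0056). Ccrl2, a chemerin-binding receptor of activated myeloid cells, rose from 27.5, 52.4 and 97.4 CPM to 110, 160 and 397 CPM (1.73 ± 0.37, adjusted p = 0.0495). Both kept the call with the Y term (2.02 and 2.61). Mt1, a metal-binding metallothionein, rose from a median of 32.0 to 70.0 CPM (1.19 ± 0.22, adjusted p = 0.0334), and Stmn1, a microtubule regulator of dividing cells, from 18.7 to 52.0 CPM (1.81 ± 0.36, adjusted p = 0.0425). Mt1 and Stmn1 lost the call with the Y term (0.52 and 0.77).

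Receptors and signalling genes were among those that fell. Il17ra, the receptor for interleukin 17, went from 161, 171 and 195 CPM to 57.9, 99.9 and 140 CPM (-0.85 ± 0.15, edgeR adjusted p = 0.0317), and Il6ra, the interleukin 6 receptor, from 83.3, 99.5 and 125 CPM to 59.7, 64.6 and 79.8 CPM (-0.63 ± 0.12, adjusted p = 0.0406). Notch2, a receptor of cell fate signalling, went from 350, 418 and 447 CPM to 231, 277 and 313 CPM (-0.59 ± 0.10, adjusted p = 0.0205). Dusp6, a phosphatase that limits ERK signals, went from 649, 665 and 718 CPM to 307, 432 and 509 CPM (-0.70 ± 0.11, adjusted p = 0.0181). The arms did not overlap in any of these 4 genes, but all 4 lost the call with the Y term. There Il17ra was at -0.76, Il6ra at -0.60, Notch2 at -0.32 and Dusp6 at -0.63. Cd300lb, an activating myeloid receptor, fell from a median of 299.9 to 170 CPM (-0.95 ± 0.19, adjusted p = 0.0447) and kept the call with the Y term, and Rasgrp4, an activator of Ras in myeloid and mast cells, fell from 93.4 to 53.0 CPM (-0.85 ± 0.11, adjusted p = 0.00995). Rasgrp4 lost the call with that term (-0.66).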
